A study of Mus musculus with 6 samples.

Results

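The 40 genes described here encode proteins of ribosome production and of MYC-driven growth: nucleolar scaffolds, subunits of RNA polymerase I, small nucleolar ribonucleoproteins (snoRNPs), assembly factors of both ribosomal subunits, and enzymes of polyamine and pyrimidine synthesis. They were taken by gene symbol from the 39179 genes of the deposited files, by a rule that reads no measured value, although the list itself was drawn up with earlier results of these data known, and all 40 were among the 14365 genes with enough reads to be tested. The samples were liver tumours of C57BL/6 wildtype mice, raised by hydrodynamic injection, a rapid injection of a large volume that carries DNA into hepatocytes. Every tumour received a transposon encoding Myc, a transcription factor of cell growth. The Myc/NrasG12V group (3 libraries) received in addition NrasG12V, a constitutively active form of the small GTPase Nras. The Myc/Akt1 group (3 libraries) received Akt1, a kinase downstream of growth factor receptors, in its place. The RNA was of bulk tumour samples, no tumour without Myc and no normal liver was analysed here, and no label told whether replicates were separate animals. The p-values therefore bear on the spread between these samples, which may be technical.

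Ribosomes are assembled in the nucleolus. RNA polymerase I transcribes the precursor of ribosomal RNA, box C/D and box H/ACA snoRNPs modify it, and a long series of assembly factors cuts, folds and exports the small and the large subunit. Many genes of this pathway are known targets of MYC, which binds E-boxes near their start sites, in liver as in other tissues.

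Values are CPM, a gene's reads scaled by the read total of its library. The libraries held between 17881282 and 27865094 reads, and every member had at least 267 reads in every library, so depth did not limit the detection of any of them. The libraries matched their labels: Nras had 158, 155 and 199.8 CPM in Myc/NrasG12V and 60.9, 54.9 and 52.1 CPM in Myc/Akt1, and Akt1 had 55.2, 52.9 and 87.1 CPM in Myc/NrasG12V and 246, 314 and 280.2 CPM in Myc/Akt1. Myc, encoded in all tumours, had 179.5, 121 and 158 CPM in Myc/NrasG12V and 135, 216 and 111 CPM in Myc/Akt1 and did not pass the test (log2 difference 0.03, 95% interval -0.57 to 0.63, limma adjusted p = 0.945). Of the 8 hepatocyte markers, 1 was higher and 1 lower in Myc/NrasG12V, and none of the hepatocyte markers was at 0 in all libraries. Their summed level was 114150 to 151360 CPM in Myc/NrasG12V against 44114 to 55517 CPM in Myc/Akt1, so a larger part of each Myc/NrasG12V library went to a few liver genes. Most of this sum was Alb, the albumin gene, with means of 110900 CPM in Myc/NrasG12V and 33560 CPM in Myc/Akt1. All its Myc/NrasG12V libraries stood above all its Myc/Akt1 libraries. Alb did not pass with limma (adjusted p = 0.184, and 0.198 to 0.219 with scaling factors). It was higher in Myc/NrasG12V in count tests on recovered reads (edgeR adjusted p = 0.00501, DESeq2 adjusted p = 5.75e-15). By log2 difference 5 of the 8 markers lay above 0 and 3 below. On the CPM scale the median tested gene stood at a log2 difference of -0.26, Myc/NrasG12V minus Myc/Akt1, while scaling factors that balance the bulk of genes put it at 0.01 (TMM and median-of-ratios) or 0.05 (upper quartile). Counts are therefore given on more than 1 scale.

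On the CPM scale many genes of ribosome production were lower in the Myc/NrasG12V tumours, and Dkc1, Rcc1, Nhp2, Mrto4, Pno1 and Ncl by more than 2-fold. Of the 40 members, 20 fell in Myc/NrasG12V, 0 rose and 20 did not pass the test (limma on log2(CPM + 1), adjusted p under 0.05 over all tested genes). The members that fell were 20 of 40, against 29.5% of all tested genes, of which 10.0% rose. At an unadjusted p under 0.05, 0 members were higher, against 13.2% of all tested genes, and 22 of 40 were lower, against 36.0% of all tested genes. In 21 members, or 52.5%, all 3 Myc/Akt1 libraries stood above all 3 Myc/NrasG12V libraries, a pattern seen in 38.0% of all tested genes. The opposite pattern was seen in 0 members and in 14.8% of all tested genes. In bulk tumours, fewer cells of a type and less RNA per cell cannot be told apart.

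Much of this count was set by the scale. With TMM factors 7 members fell, 17.5% of the list against 17.9% of all tested genes, and with median-of-ratios factors 7 fell, against 17.5% of all tested genes. With upper-quartile factors 6 of 40 fell, against 16.3% of all tested genes. Count tests on the recovered whole reads gave 7 with edgeR, beside 17.5% of all tested genes, and 8 of 40 with DESeq2, beside 19.5% of all tested genes. On these scales the share of members that fell was thus near that of all genes. The share that rose was smaller, at 1 of 40 members (2.5%) on each, against 16.2% to 19.2% of all tested genes. Relative to the median gene the list still sat low: the median member differed by -0.57 on the CPM scale, where the median gene differed by -0.26, and by -0.26 with TMM factors, where the median gene differed by 0.01. In each of these comparisons 31 of the 40 members lay below the median tested gene. The plot of log2 differences by role sets each member against that median.

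**Figure D1:**
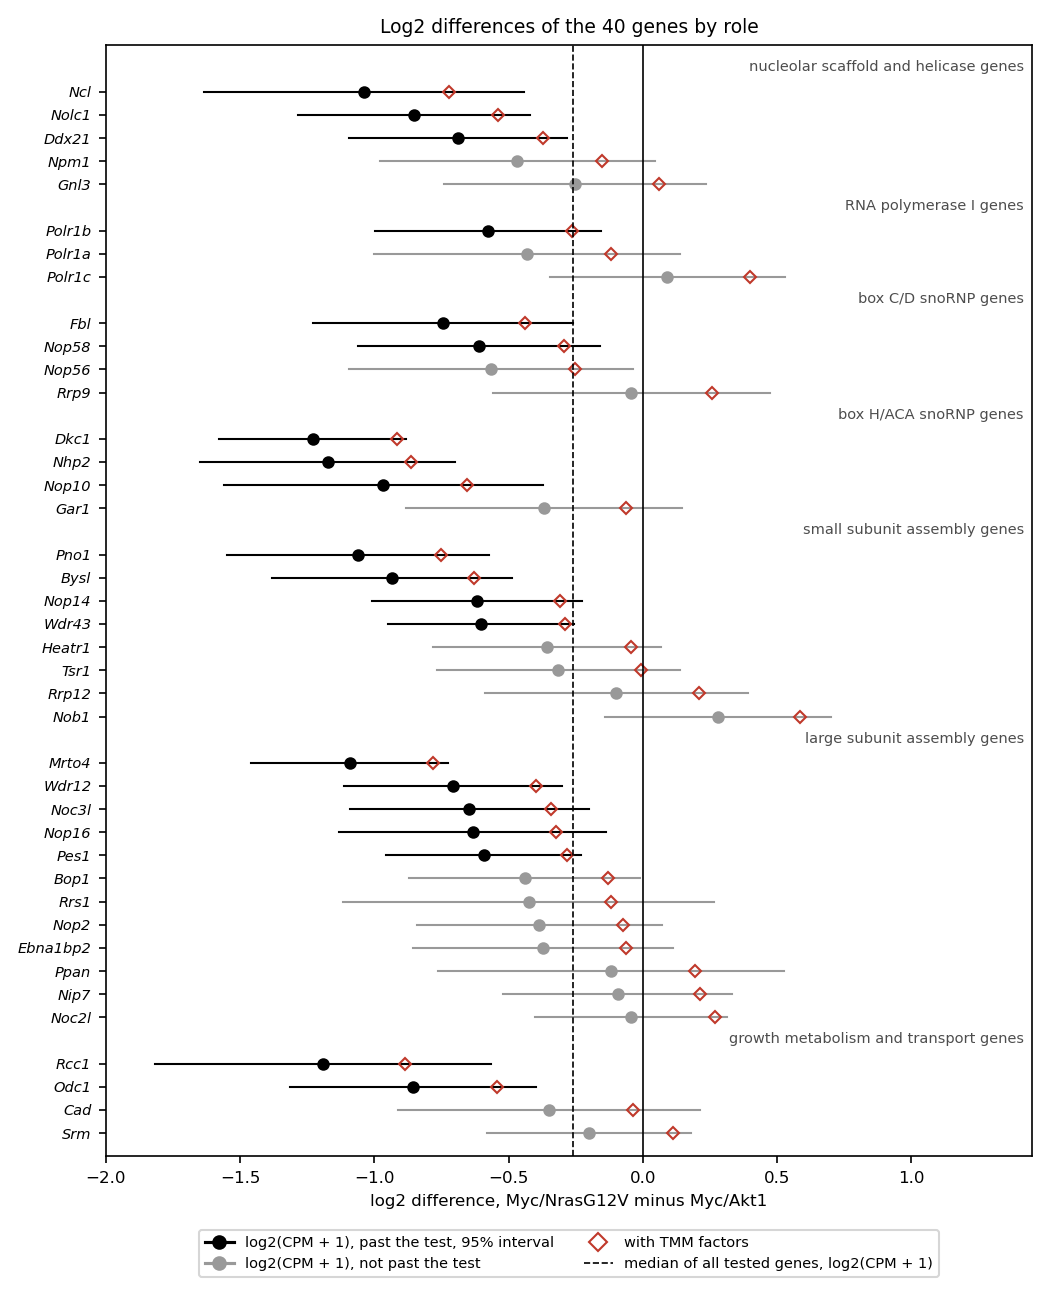
Log2 difference of each of the 40 members, Myc/NrasG12V minus Myc/Akt1 (x axis, log2(CPM + 1) scale), with its 95% limma interval, grouped by role. The dashed line is the median of all tested genes at -0.26; the intervals of the 20 members that fell lie left of 0, and Nob1 and Polr1c are the 2 members with a difference above 0.

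The fall did not have the same depth in each library. Summed over the 40 members, the level was 2845, 3228 and 3876 CPM in replicates 1, 2 and 3 of Myc/NrasG12V and 5730, 5386 and 4448 CPM in those of Myc/Akt1. All 3 Myc/NrasG12V sums were thus below all 3 Myc/Akt1 sums, with a ratio of means of 0.639. The abundant nucleolar proteins Ncl and Npm1 made up a large part, and without them the sums averaged 2137 ± 331 CPM in Myc/NrasG12V and 3142 ± 220 CPM in Myc/Akt1 (SD, n = 3 each), a ratio of 0.680. The replicate 3 libraries of both groups stood closest to each other: in Myc/NrasG12V, replicate 3 was the highest of its group for 34 of 40 members, and in Myc/Akt1, replicate 3 was the lowest of its group for 24. Replicate 1 of Myc/NrasG12V was the lowest of all 6 libraries for 27 members, and replicate 1 of Myc/Akt1 the highest of all 6 for 16. The spread within groups was near that of other genes, with a median coefficient of variation of 17.5% in Myc/NrasG12V and 14.2% in Myc/Akt1, against 17.3% and 14.2% for the 6710 tested genes in the same range of levels. The heat map of members by library shows this order of the libraries.

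**Figure D2:**
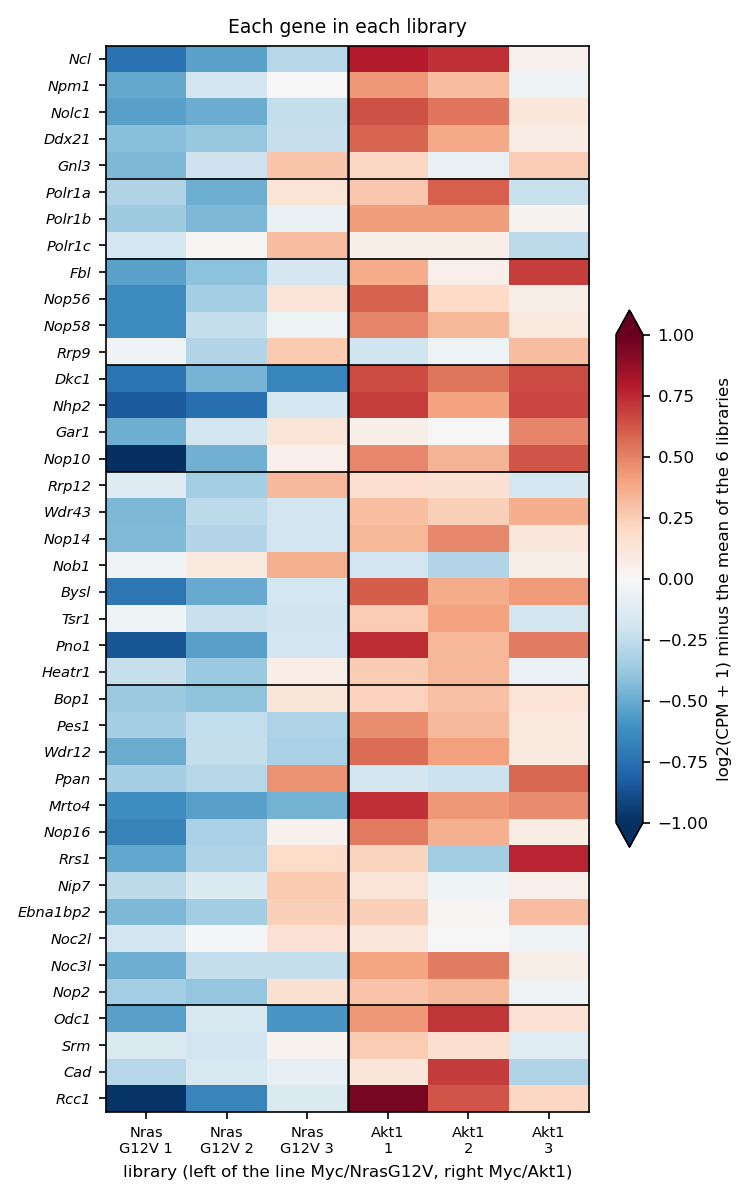
Level of each of the 40 members (rows, by role) in each library (columns, Myc/NrasG12V replicates left of Myc/Akt1 replicates), as the log2 of its CPM relative to its mean over the 6 libraries. Most rows change from low to high between the groups, with Myc/NrasG12V replicate 3 the highest of its group for 34 members.

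Left-out libraries moved the count. Without Myc/NrasG12V replicate 1, 8 of 40 members fell, against 22.3% of all tested genes, and without Myc/NrasG12V replicate 2, 13 fell, against 23.0% of all tested genes. Without Myc/Akt1 replicate 1, 8 fell, against 20.1% of all tested genes, and without Myc/Akt1 replicate 2, 11 fell, against 21.3%. With Myc/NrasG12V replicate 3 left out 24 fell, against 33.4%, and with Myc/Akt1 replicate 3 left out 18 fell, against 27.6%. When replicate 1 of either group was left out, the share of members that fell was thus near that of all genes. Dkc1, Nhp2, Bysl, Pno1, Mrto4 and Rcc1 passed the test in all 16 alternatives of scale, filter, pseudocount, test, block and left-out library. With upper-quartile factors their log2 differences were smaller than on the CPM scale, at -0.862, -0.808, -0.575, -0.698, -0.730 and -0.835 in that order. These 6 are described below at their places in the pathway.

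Markers of other cells and genes of the cell cycle differed between the groups as well. All 12 of 12 cell cycle genes were lower in Myc/NrasG12V, with a summed level of 86.5 to 138 CPM in Myc/NrasG12V against 637 to 1154 CPM in Myc/Akt1. Of the neutrophil markers 6 of 8 were higher in Myc/NrasG12V, and their sum was 25.1 to 199 CPM in Myc/NrasG12V against 1.68 to 2.29 CPM in Myc/Akt1. Erythroid markers were higher for 6 of 8 genes, with a sum of 300.4 to 1869 CPM in Myc/NrasG12V and 49.8 to 103 CPM in Myc/Akt1. Both of these sums were highest in Myc/NrasG12V replicate 3. Macrophage markers were higher for 4 of 7 genes (199 to 329 CPM in Myc/NrasG12V, 94.2 to 127 CPM in Myc/Akt1), and T and NK cell markers for 4 of the 6 tested (11.4 to 30.7 CPM in Myc/NrasG12V, 5.13 to 6.60 CPM in Myc/Akt1). Of these 6, 5 had log2 differences above 0 and 1, Cd4, below. All Cd4 values of Myc/Akt1 lay above those of Myc/NrasG12V, but Cd4 did not pass (log2 difference -0.63, limma adjusted p = 0.07). B cell and cholangiocyte markers gave 0 calls, endothelial markers 1 in each direction of 5, and stellate and fibroblast markers 1 higher of 7. These marker calls are on the CPM scale. Of the 4 tested cholangiocyte markers, 2 were higher in Myc/NrasG12V with each scaling factor, 3 with edgeR and 4 with DESeq2. The endothelial marker called lower passed in none of these settings. The part of these cells, and of the cell cycle, in the levels of the members was not tested.

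The nucleolar scaffold and helicase genes held the members of highest CPM, and 3 of the 5 fell on the CPM scale. Ncl encodes nucleolin, an abundant RNA-binding protein of the nucleolus that acts in rRNA transcription and processing. It had 499.8, 575 and 684 CPM in replicates 1, 2 and 3 of Myc/NrasG12V and 1440, 1384 and 858 CPM in those of Myc/Akt1. Its Myc/Akt1 libraries all lay above its Myc/NrasG12V libraries, and its mean was 2.09-fold lower in Myc/NrasG12V (log2 difference -1.04, 95% interval -1.64 to -0.44, limma adjusted p = 0.0138). Its call was lost without Myc/NrasG12V replicate 1, Myc/Akt1 replicate 1 or Myc/Akt1 replicate 2 (limma adjusted p = 0.056 to 0.0579) and with any of the 3 scaling factors (0.0589 to 0.0742). Npm1 encodes nucleophosmin, a chaperone of ribosomal proteins, and had 483, 608 and 688 CPM in replicates 1, 2 and 3 of Myc/NrasG12V and 931, 855 and 671 CPM in those of Myc/Akt1. Myc/NrasG12V replicate 3 exceeded Myc/Akt1 replicate 3, so the groups overlapped, and Npm1 did not pass (log2 difference -0.47, 95% interval -0.98 to 0.05, limma adjusted p = 0.132). Of the transcript positions of Npm1, 18.1% shared a stretch of 75 bases, the read length, with another gene, so its level is uncertain to that extent. Per length, Npm1 was the member of highest level, with a mean RPKM (CPM divided by the exon length in kilobases) of 223 in Myc/NrasG12V and 307 in Myc/Akt1.

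Nolc1, which encodes a nucleolar chaperone of snoRNPs and RNA polymerase I, had 73.7, 76.5 and 91.3 CPM in Myc/NrasG12V and 169, 157 and 116 CPM in Myc/Akt1. All Myc/Akt1 libraries were above those of Myc/NrasG12V (log2 difference -0.85, 95% interval -1.29 to -0.42, limma adjusted p = 0.00804), and the call held in every alternative except upper-quartile factors (adjusted p = 0.0615 by limma). Ddx21, an RNA helicase of rRNA transcription and processing, averaged 131 ± 9.03 CPM in Myc/NrasG12V and 213 ± 36.9 CPM in Myc/Akt1 (SD, n = 3 each), a log2 difference of -0.69 (limma adjusted p = 0.0154); no Ddx21 libraries overlapped between groups, but the call was lost with each scaling factor (0.119 to 0.169) and without replicate 1 or 2 of either group (0.0518 to 0.0722). Gnl3, a nucleolar GTPase known as nucleostemin, averaged 131 ± 34.9 CPM in Myc/NrasG12V and 153 ± 18.1 CPM in Myc/Akt1 (SD, n = 3 each), its groups overlapped, and it did not pass (log2 difference -0.25, 95% interval -0.74 to 0.24, limma adjusted p = 0.383). The plot of selected members by library includes Nolc1, Ncl and Npm1.

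**Figure D3:**
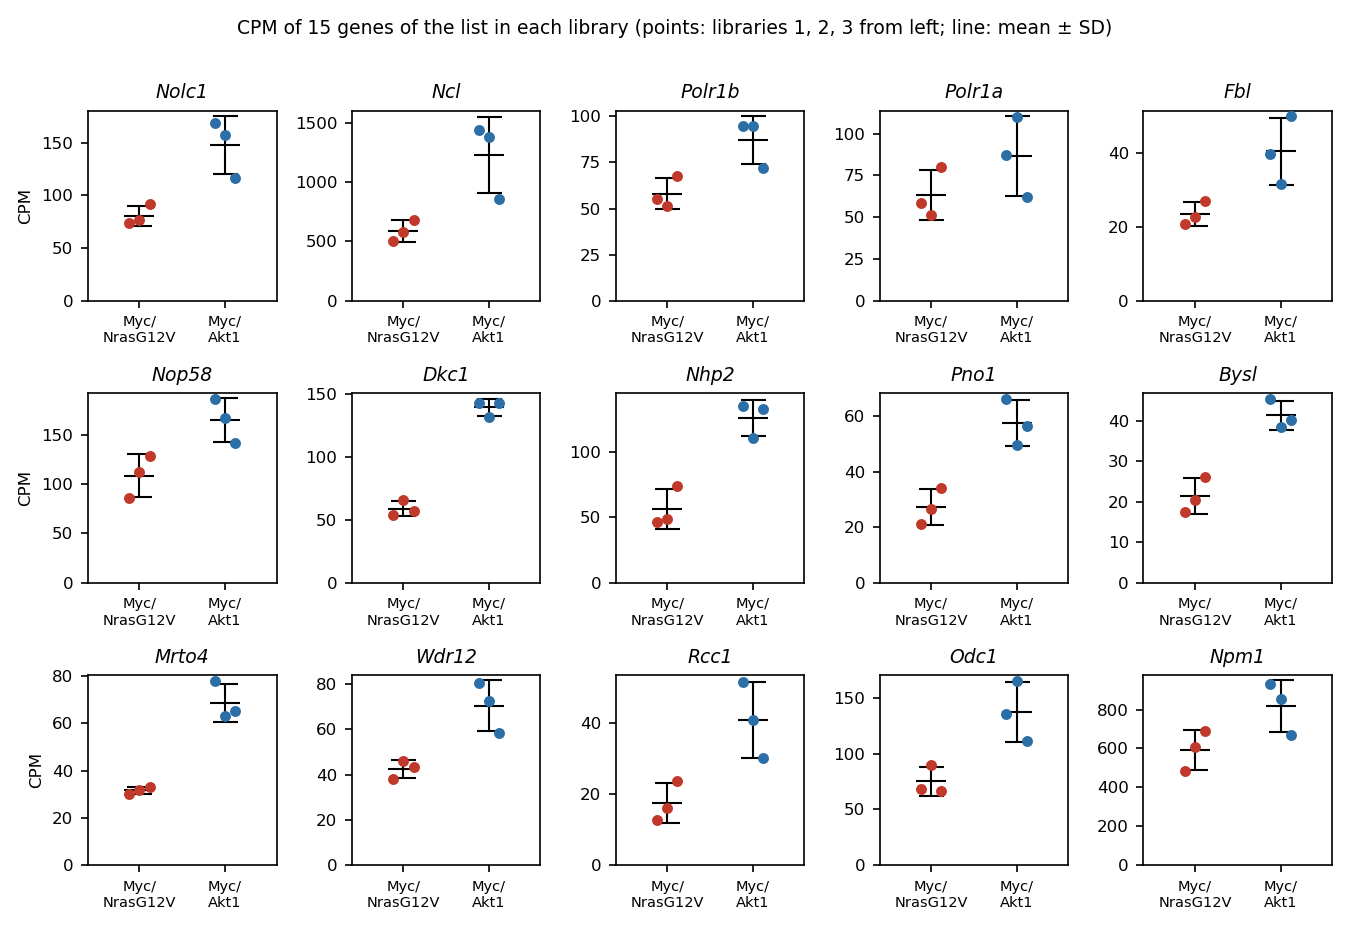
CPM of selected members in each library (points, linear axis), with Myc/NrasG12V to the left of Myc/Akt1 in each panel and lines for the group mean and SD. For Dkc1 and Mrto4 the groups are far apart, at 54.3 to 65.6 against 132 to 143 CPM for Dkc1, while for Npm1 they overlap.

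Of the RNA polymerase I subunits, 1 of 3 members fell on the CPM scale and 0 with any scaling factor. Polr1b, the second-largest subunit, had 55.1, 51.5 and 67.7 CPM in Myc/NrasG12V and 94.8, 94.99 and 72.1 CPM in Myc/Akt1. There was no overlap, although Myc/NrasG12V replicate 3 came close to Myc/Akt1 replicate 3 (log2 difference -0.58, limma adjusted p = 0.0363). The Polr1b call was lost without replicate 1 or 2 of either group (limma adjusted p = 0.104 to 0.132), with a replicate block (0.0667) and with each scaling factor (0.245 to 0.353). Polr1a, the largest and catalytic subunit, had 58.5, 51.4 and 79.9 CPM in Myc/NrasG12V and 87.5, 110.0 and 61.9 CPM in Myc/Akt1. Here Myc/NrasG12V replicate 3 was above Myc/Akt1 replicate 3, and the difference did not pass (log2 difference -0.43, limma adjusted p = 0.201). Polr1c, which is shared with RNA polymerase III, averaged 43.9 ± 7.74 CPM in Myc/NrasG12V and 40.9 ± 5.25 CPM in Myc/Akt1 (SD, n = 3 each), and its interval spanned 0 (log2 difference 0.09, 95% interval -0.34 to 0.53, limma adjusted p = 0.732).

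Of the box C/D snoRNP genes, which guide methylation of ribosomal RNA, 2 of 4 fell on the CPM scale and 0 with any scaling factor. Fbl encodes fibrillarin, the methyltransferase of the particle, and had 20.8, 22.7 and 27.1 CPM in Myc/NrasG12V and 39.8, 31.7 and 50.1 CPM in Myc/Akt1. Each Myc/Akt1 library lay above each Myc/NrasG12V library (log2 difference -0.74, 95% interval -1.23 to -0.26, limma adjusted p = 0.0234). Nop58, a core protein that bridges the particle, had 85.5, 112 and 128 CPM in Myc/NrasG12V and 186, 167 and 142 CPM in Myc/Akt1, again without overlap (log2 difference -0.61, 95% interval -1.06 to -0.16, limma adjusted p = 0.0383). Both calls were lost without replicate 1 of either group, without Myc/NrasG12V replicate 2, and with each scaling factor (limma adjusted p = 0.126 to 0.182 for Fbl and 0.239 to 0.343 for Nop58). Fbl was also lost without Myc/Akt1 replicate 3, and Nop58 without Myc/Akt1 replicate 2. Fbl shared 17.7% of its transcript positions with other genes, and Nop56 14.4%. Nop56, the partner of Nop58, averaged 103 ± 28.1 CPM in Myc/NrasG12V and 151 ± 29.6 CPM in Myc/Akt1 (SD, n = 3 each) and did not pass (log2 difference -0.57, limma adjusted p = 0.0836), but it passed without Myc/NrasG12V replicate 3 (adjusted p = 0.0148 by limma). Rrp9, which belongs to the U3 particle of early rRNA cleavage, averaged 19.0 ± 3.85 CPM in Myc/NrasG12V and 19.6 ± 3.81 CPM in Myc/Akt1 (SD, n = 3 each) (log2 difference -0.04, 95% interval -0.56 to 0.47, limma adjusted p = 0.901).

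The box H/ACA snoRNP genes had the lowest median log2 difference of the 7 roles, -1.07, and 3 of 4 members fell, 2 of them also with TMM factors. These particles convert uridine to pseudouridine in ribosomal RNA, and the same 4 proteins are part of telomerase. Dkc1 (chrX:75095854-75109777, GRCm38) encodes dyskerin, the pseudouridine synthase of the particle. It had 54.3, 65.6 and 57.4 CPM in replicates 1, 2 and 3 of Myc/NrasG12V and 143, 132 and 143 CPM in those of Myc/Akt1. The 3 Myc/NrasG12V values lay close together and far below all 3 Myc/Akt1 values. The mean was 2.36-fold lower in Myc/NrasG12V, and no member had a lower adjusted p (log2 difference -1.23, 95% interval -1.58 to -0.88, limma adjusted p = 0.000554). Nhp2 (chr11:51619735-51623714), a core protein that binds the RNA, had 46.3, 48.9 and 73.5 CPM in replicates 1, 2 and 3 of Myc/NrasG12V and 135, 110.2 and 133 CPM in those of Myc/Akt1. Myc/NrasG12V replicate 3 was the highest of its group, yet below every Myc/Akt1 library (log2 difference -1.17, 95% interval -1.65 to -0.70, limma adjusted p = 0.0029). For Dkc1 and Nhp2 the calls held in all 16 alternatives, with limma adjusted p of 0.00348 to 0.00446 and 0.00901 to 0.0138 under the 3 scaling factors. Nop10, the smallest core protein, had 31.2, 46.0 and 66.9 CPM in Myc/NrasG12V and 90.1, 82.1 and 100.3 CPM in Myc/Akt1, without overlap (log2 difference -0.97, 95% interval -1.56 to -0.37, limma adjusted p = 0.0184). Nop10 lost its call without Myc/NrasG12V replicate 1, Myc/Akt1 replicate 1 or Myc/Akt1 replicate 3 (limma adjusted p = 0.0505 to 0.0571) and with each scaling factor (0.066 to 0.0955). Gar1, the remaining protein of the particle, averaged 23.0 ± 5.02 CPM in Myc/NrasG12V and 29.8 ± 5.91 CPM in Myc/Akt1 (SD, n = 3 each) with overlapping groups, and did not pass (log2 difference -0.37, 95% interval -0.88 to 0.15, limma adjusted p = 0.227). Dkc1, Nhp2 and Gar1 shared no stretch of 75 bases with another gene.

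Among the small subunit assembly genes 4 of 8 fell on the CPM scale and 2 with TMM factors. Pno1 (chr11:17203198-17211568) encodes a late-acting factor that holds the immature end of 18S rRNA. It had 21.2, 26.5 and 34.2 CPM in replicates 1, 2 and 3 of Myc/NrasG12V and 66.0, 49.5 and 56.5 CPM in those of Myc/Akt1. The groups were well apart, with a mean 2.10-fold lower in Myc/NrasG12V (log2 difference -1.06, 95% interval -1.55 to -0.57, limma adjusted p = 0.00534). Bysl (chr17:47599331-47611492) encodes bystin, which is needed for cleavage of the 18S precursor, and had 17.5, 20.5 and 26.1 CPM in replicates 1, 2 and 3 of Myc/NrasG12V and 45.4, 38.5 and 40.1 CPM in those of Myc/Akt1. All Myc/Akt1 libraries stood above those of Myc/NrasG12V (log2 difference -0.93, 95% interval -1.38 to -0.49, limma adjusted p = 0.00633). Bysl overlaps Ccnd3 on the other strand, and 7.59% of its transcript positions were shared with another gene. The calls of Pno1 and Bysl held in all 16 alternatives. Wdr43, a protein of the early processome, averaged 88.4 ± 8.12 CPM in Myc/NrasG12V and 134 ± 6.16 CPM in Myc/Akt1 (SD, n = 3 each), a log2 difference of -0.60 (limma adjusted p = 0.0137), and Nop14, a further processome protein, averaged 34.4 ± 3.05 CPM in Myc/NrasG12V and 53.5 ± 6.93 CPM in Myc/Akt1 (SD, n = 3 each), a log2 difference of -0.62 (limma adjusted p = 0.021). Neither passed with a scaling factor (limma adjusted p = 0.146 to 0.239 for Wdr43 and 0.166 to 0.247 for Nop14). Without replicate 1 of either group neither passed, and without replicate 2 of either group Nop14 did not pass.

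Nob1, the endonuclease that makes the final cut of 18S rRNA, was the member of highest log2 difference. It had 34.6, 38.0 and 45.8 CPM in Myc/NrasG12V and 31.0, 28.8 and 37.0 CPM in Myc/Akt1, with Myc/Akt1 replicate 3 inside the range of Myc/NrasG12V. On the CPM scale it did not pass (log2 difference 0.28, 95% interval -0.14 to 0.70, limma adjusted p = 0.262). It was higher in Myc/NrasG12V with each of the 3 scaling factors (limma adjusted p = 0.0241 to 0.0288), and with edgeR and DESeq2 on whole reads, and it was the 1 member that rose in any alternative. On these scales 16.2% to 19.2% of all tested genes rose. Pno1, whose yeast counterpart binds the same precursor beside Nob1, fell on each of these scales. The remaining 3, Rrp12 (export of the subunits), Tsr1 (a GTPase-like late factor) and Heatr1 (an early processome protein), had log2 differences of -0.10, -0.31 and -0.35, overlapping groups and limma adjusted p of 0.747, 0.24 and 0.162. Tsr1 shared 25.5% of its transcript positions with other genes, mostly with Srr on the other strand, the highest share of all members.

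The start sites of 3 members are shown to set side by side members with and without an E-box, the CACGTG motif that MYC binds, and with and without a call. Each window runs from 250 bases before to 50 bases after the RefSeq start on GRCm38.p6, 5′ to 3′ on the strand of the gene. Capitals mark matches, on either strand, of the E-box, of the NRF1 motif (GCGC, any base, TGCGC) or of the ETS motif CCGGAAG. Pno1 (chr11:17211540-17211839, minus strand) fell and holds an E-box 38 bases after its start, with an NRF1 match. Tsr1 (chr11:74897830-74898129, plus strand) did not pass and holds an E-box 25 bases after its start, with an ETS match. Dkc1 (chrX:75095604-75095903, plus strand) had the lowest adjusted p and holds none of the 3 motifs in this window.
Pno1: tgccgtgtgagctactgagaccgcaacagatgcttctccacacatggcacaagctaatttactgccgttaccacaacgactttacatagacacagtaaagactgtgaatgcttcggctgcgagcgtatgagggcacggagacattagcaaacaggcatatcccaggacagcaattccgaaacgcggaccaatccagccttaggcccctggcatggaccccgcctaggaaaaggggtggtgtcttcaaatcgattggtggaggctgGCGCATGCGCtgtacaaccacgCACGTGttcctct
Tsr1: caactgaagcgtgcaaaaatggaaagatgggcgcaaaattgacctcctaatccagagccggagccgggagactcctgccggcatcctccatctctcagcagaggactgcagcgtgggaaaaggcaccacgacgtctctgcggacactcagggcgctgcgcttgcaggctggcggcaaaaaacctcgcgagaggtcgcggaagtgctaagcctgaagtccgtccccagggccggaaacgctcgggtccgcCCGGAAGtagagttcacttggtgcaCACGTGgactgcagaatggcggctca
Dkc1: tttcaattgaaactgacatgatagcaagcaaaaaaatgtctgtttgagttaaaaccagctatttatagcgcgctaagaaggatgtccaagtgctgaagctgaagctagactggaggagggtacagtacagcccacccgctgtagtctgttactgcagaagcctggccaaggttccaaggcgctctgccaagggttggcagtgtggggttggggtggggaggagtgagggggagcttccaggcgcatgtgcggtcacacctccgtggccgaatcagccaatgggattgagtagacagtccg

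RefSeq windows were found for 34 of the 40 members, and those of Srm, Bop1, Rrp12, Npm1, Rrs1 and Fbl were not analysed here. An E-box lay in the windows of 5 of the 34 (14.7%: Wdr43, Tsr1, Pno1, Pes1 and Nop2), against 8.09% of 27025 genes with a window. It was found in 3 of the 19 members that fell and in 2 of the 15 that did not pass. The ETS motif lay in 12 (35.3%), against 9.93% of all genes, in 3 of the 19 that fell and 9 of the 15 that did not pass. The NRF1 motif lay in 6 (17.6%), against 5.19% of all genes, in 4 of the 19 that fell and 2 of the 15 that did not pass. Windows of the members were richer in G and C, with a median of 59.7% against 52.7% over all windows, and its part in these shares was not tested. A match describes the letters of the window and is no measurement of binding.

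In the large subunit group 5 of 12 members fell on the CPM scale and 1, Mrto4, with TMM factors. Mrto4 (chr4:139347435-139352576) encodes a factor related to the ribosomal stalk protein P0 that holds its place during assembly. It had 30.0, 31.7 and 33.2 CPM in replicates 1, 2 and 3 of Myc/NrasG12V and 78.0, 63.2 and 65.2 CPM in those of Myc/Akt1. The Myc/NrasG12V values lay close together and far below all Myc/Akt1 values, a mean 2.17-fold lower (log2 difference -1.09, 95% interval -1.46 to -0.72, limma adjusted p = 0.00125). Its call held in all 16 alternatives (limma adjusted p = 0.00606 to 0.00798 under the 3 scaling factors). Wdr12, Pes1 and Bop1 form the PeBoW complex, which is needed for processing of the 28S precursor. Wdr12 had 38.2, 46.0 and 43.3 CPM in Myc/NrasG12V and 80.5, 72.5 and 58.3 CPM in Myc/Akt1, without overlap (log2 difference -0.71, 95% interval -1.11 to -0.30, limma adjusted p = 0.014). Pes1 averaged 61.9 ± 1.96 CPM in Myc/NrasG12V and 94.4 ± 12.2 CPM in Myc/Akt1 (SD, n = 3 each), a log2 difference of -0.59 (limma adjusted p = 0.0182), and Bop1 averaged 40.3 ± 8.79 CPM in Myc/NrasG12V and 54.3 ± 3.03 CPM in Myc/Akt1 (SD, n = 3 each), a log2 difference of -0.44 (limma adjusted p = 0.0955). All 3 had Myc/Akt1 libraries wholly above those of Myc/NrasG12V, and Pes1 shared 12.4% of its transcript positions with other genes. Wdr12 and Pes1 passed on the CPM scale and with no scaling factor (limma adjusted p = 0.11 to 0.155 for Wdr12 and 0.199 to 0.284 for Pes1), both were lost without Myc/NrasG12V replicate 1 or either of Myc/Akt1 replicates 1 and 2, and Bop1 passed without Myc/NrasG12V replicate 3 (0.0128).

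Noc3l, the nucleolar partner of Noc2l, averaged 19.7 ± 2.02 CPM in Myc/NrasG12V and 31.6 ± 5.18 CPM in Myc/Akt1 (SD, n = 3 each), a log2 difference of -0.65 (limma adjusted p = 0.029), and Nop16, a nucleolar assembly factor, averaged 51.0 ± 12.7 CPM in Myc/NrasG12V and 78.8 ± 12.2 CPM in Myc/Akt1 (SD, n = 3 each), a log2 difference of -0.63 (limma adjusted p = 0.047). Both fell on the CPM scale alone, and both calls were lost without replicate 1 or 2 of either group (limma adjusted p = 0.0598 to 0.116 for Noc3l and 0.106 to 0.163 for Nop16). The other 6 did not pass and had overlapping groups. They were Nop2, an rRNA methyltransferase (-0.39), Ebna1bp2 (-0.37) and Rrs1 (-0.42) of the early particle, and the assembly factors Ppan (-0.12), Nip7 (-0.09) and Noc2l (-0.04), all as log2 differences on the CPM scale. Nop2 and Ebna1bp2 passed without Myc/NrasG12V replicate 3 (0.0284 and 0.0189 by limma). With every scaling factor Ppan, Nip7 and Noc2l had differences above 0, between 0.19 and 0.32. Noc2l shared 18.3% of its transcript positions with another gene, the antisense Samd11.

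Of the 4 growth metabolism and transport genes 2 fell on the CPM scale. Rcc1 (chr4:132331919-132353605) encodes the nucleotide exchange factor of Ran, which sets the direction of transport between nucleus and cytoplasm. It had 12.8, 16.2 and 23.7 CPM in replicates 1, 2 and 3 of Myc/NrasG12V and 51.6, 41.0 and 30.4 CPM in those of Myc/Akt1. The values of the groups approached each other in the replicate 3 libraries but did not overlap, and the mean was 2.34-fold lower in Myc/NrasG12V (log2 difference -1.19, 95% interval -1.82 to -0.56, limma adjusted p = 0.00944). The Rcc1 call held in all 16 alternatives (0.0288 to 0.0369 by limma under the 3 scaling factors). Odc1, the rate-limiting enzyme of polyamine synthesis and a classical MYC target, had 68.6, 89.99 and 66.8 CPM in replicates 1, 2 and 3 of Myc/NrasG12V and 136, 165 and 111 CPM in those of Myc/Akt1. There was no overlap between the groups (log2 difference -0.86, 95% interval -1.32 to -0.40, limma adjusted p = 0.0104). Its call held without any 1 library but not with the scaling factors (0.0818 to 0.104), and 16.6% of its transcript positions were shared with other genes. Srm, spermidine synthase, averaged 105 ± 8.93 CPM in Myc/NrasG12V and 122 ± 16.1 CPM in Myc/Akt1 (SD, n = 3 each), a log2 difference of -0.20 (limma adjusted p = 0.368). Cad, the multifunctional enzyme that starts pyrimidine synthesis, averaged 55.1 ± 3.96 CPM in Myc/NrasG12V and 73.2 ± 26.1 CPM in Myc/Akt1 (SD, n = 3 each), a log2 difference of -0.35 (limma adjusted p = 0.295); neither passed.

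Across the 40 members the log2 difference stood in a weak relation to the level: Spearman's rho was -0.36 between the difference and the mean level per length in Myc/Akt1, which share the Myc/Akt1 values, and -0.02 between the difference and the exon length. These are relations across genes, which are not independent replicates.

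The rest of the pathway was followed in 129 further genes of 6 lists, all tested. On the CPM scale 2 rose, 51 fell and 76 did not pass. Thus 39.5% fell, against 29.5% of all tested genes, and 1.55% rose, against 10.0%. With TMM factors 6 rose and 22 fell. That is 17.1% lower, against 17.9% of all tested genes, and 4.65% higher, against 16.2%. With upper-quartile factors 8 rose and 16 fell. That is 12.4% lower, against 16.3% of all tested genes, and 6.2% higher, against 17.7%. By list, the CPM counts were 4 lower of 11 for RNA polymerase I and its factors, 2 of 6 for snoRNP proteins and their assembly, 22 of 40 for the small subunit, 10 of 46 for the large subunit, 7 of 13 for the RNA exosome and 6 of 13 for polyamine and pyrimidine synthesis. The median log2 differences of the lists ran from -0.31 for the large subunit to -0.77 for polyamine and pyrimidine synthesis, where the median tested gene stood at -0.26. Without Myc/NrasG12V replicate 1, 29 of the 129 fell, against 22.3% of all tested genes. Without Myc/NrasG12V replicate 2, 33 fell, against 23.0%. Without Myc/Akt1 replicate 1, 25 fell, against 20.1%, and without Myc/Akt1 replicate 2, 26 fell, against 21.3%. In these fits, which do not include those without a replicate 3 library, the share of the lists that fell was thus near that of all genes. Without Myc/NrasG12V replicate 3 the median of the 129 genes was -0.57, where the median tested gene stood at -0.32. Without Myc/Akt1 replicate 3 it was -0.47, where the median tested gene stood at -0.26. The range of counts over all left-out libraries is given in the closing sections. On all 4 scales 16 genes fell, among them Twistnb, Ruvbl1, Utp3, Utp6, Nifk, Wdr18, C1d and Umps, and 2 rose. The plot of the 6 lists shows the range of each.

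**Figure D4:**
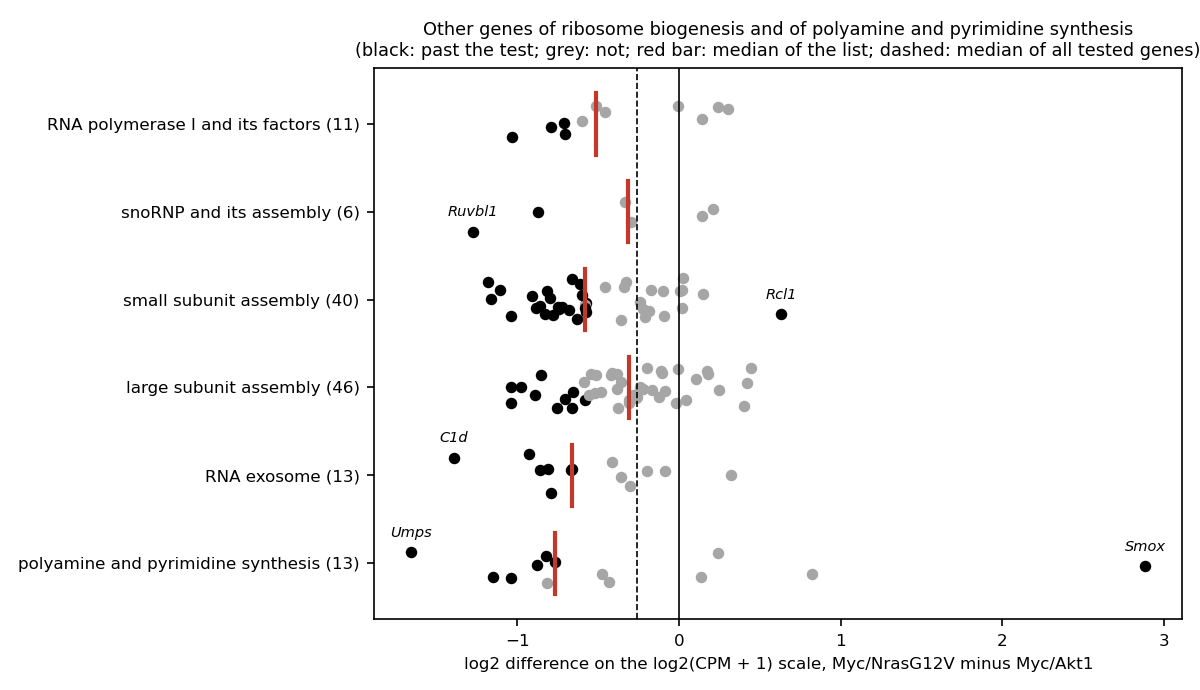
Log2 difference (x axis, log2(CPM + 1) scale, Myc/NrasG12V minus Myc/Akt1) of 129 other genes of ribosome production and of polyamine and pyrimidine synthesis, by list (y axis, number of genes in parentheses), black where the gene passed the test. Smox at 2.88 and Umps at -1.66 lie at the ends of the same list.

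Within transcription by RNA polymerase I, Twistnb, a subunit of the enzyme, averaged 12.8 ± 1.94 CPM in Myc/NrasG12V and 27.1 ± 2.22 CPM in Myc/Akt1 (SD, n = 3 each), a log2 difference of -1.03 (limma adjusted p = 0.00372). Rrn3, which recruits the polymerase to rRNA genes, averaged 32.4 ± 2.25 CPM in Myc/NrasG12V and 54.1 ± 8.66 CPM in Myc/Akt1 (SD, n = 3 each), a log2 difference of -0.71 (limma adjusted p = 0.0137), a call lost with each scaling factor (0.0932 to 0.133 by limma) and without Myc/Akt1 replicate 1 or 2. Among snoRNP genes, Ruvbl1, an ATPase of snoRNP assembly and of chromatin remodelling, averaged 12.4 ± 1.80 CPM in Myc/NrasG12V and 31.4 ± 2.92 CPM in Myc/Akt1 (SD, n = 3 each), a log2 difference of -1.27 (limma adjusted p = 0.00133), although 40.5% of its transcript positions were shared with other genes. Nhp2l1, which binds the box C/D RNA, averaged 9.96 ± 1.2 CPM in Myc/NrasG12V and 19.0 ± 0.908 CPM in Myc/Akt1 (SD, n = 3 each), a log2 difference of -0.87 (limma adjusted p = 0.00814), a call lost with upper-quartile factors (0.0524).

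For the small subunit, Utp3 and Utp6, both proteins of the early processome, had log2 differences of -0.86 and -1.11 (limma adjusted p = 0.00404 and 0.00453). Rcl1, the processome protein needed for early cleavage, rose instead. It had 221, 201 and 256 CPM in Myc/NrasG12V and 137, 145 and 152 CPM in Myc/Akt1, each Myc/NrasG12V library above each Myc/Akt1 library (log2 difference 0.63, 95% interval 0.27 to 1.00, limma adjusted p = 0.0146), and the call was lost without Myc/Akt1 replicate 1 or 2 (0.0511 to 0.0664). For the large subunit, Nifk, a nucleolar RNA-binding protein, and Wdr18, of the complex that removes a spacer of the precursor, had log2 differences of -0.97 and -0.89 (limma adjusted p = 0.00204 and 0.00294).

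In the RNA exosome, which trims rRNA precursors from their 3′ ends, C1d, a nuclear cofactor, had 20.8, 24.7 and 29.7 CPM in Myc/NrasG12V and 70.6, 59.0 and 70.8 CPM in Myc/Akt1 (log2 difference -1.39, 95% interval -1.82 to -0.96, limma adjusted p = 0.000799). The groups did not overlap, and the mean was 2.67-fold lower in Myc/NrasG12V. Exosc2, a cap subunit, averaged 18.9 ± 1.98 CPM in Myc/NrasG12V and 37.1 ± 6.96 CPM in Myc/Akt1 (SD, n = 3 each), a log2 difference of -0.93 (limma adjusted p = 0.00672), a call lost with upper-quartile factors (0.0501).

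Polyamine and pyrimidine genes moved in both directions. Smox, spermine oxidase, which breaks spermine down to spermidine, had 39.4, 41.3 and 44.8 CPM in replicates 1, 2 and 3 of Myc/NrasG12V and 3.61, 5.20 and 5.82 CPM in those of Myc/Akt1. Its lowest Myc/NrasG12V library was far above its highest Myc/Akt1 library, and its mean was 8.58-fold higher in Myc/NrasG12V (log2 difference 2.88, 95% interval 2.39 to 3.38, limma adjusted p = 7.43e-05). Umps, which completes the synthesis of UMP, a pyrimidine nucleotide, had 37.0, 40.6 and 25.3 CPM in replicates 1, 2 and 3 of Myc/NrasG12V and 118, 112 and 95.1 CPM in those of Myc/Akt1. It was the gene of lowest log2 difference in the 6 lists (log2 difference -1.66, 95% interval -2.13 to -1.18, limma adjusted p = 0.00059), and both calls held in all 16 alternatives. Azin1, which frees ornithine decarboxylase from its inhibitor antizyme, had 59.9, 65.6 and 33.9 CPM in Myc/NrasG12V and 111, 111 and 121 CPM in Myc/Akt1, without overlap (log2 difference -1.15, 95% interval -1.71 to -0.59, limma adjusted p = 0.00676). Its call was lost with median-of-ratios factors (0.0539 by limma), upper-quartile factors (0.0558 by limma) and edgeR on recovered reads (edgeR adjusted p = 0.0633).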

How the data were processed

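Poly(A) RNA of 6 tumour samples was sequenced as stranded single-end libraries, per the labels' protocols. The authors' deposited values are CPM per gene, although the column is named for reads. The build was GRCm38, and the tools listed were Subread 1.6.3, STAR 2.6.1c and edgeR 3.22.5, per the submitters' processing notes. Not given in the sources used here are the strand setting, the treatment of multi-mapped reads and the annotation release, so members that share sequence or overlap a gene on the other strand are uncertain to that extent. All values were whole multiples of 1 read (0.0359 to 0.0559 CPM) within 0.01 read for 100% of values, and a count of 0 allowed up to 0.108 to 0.168 CPM, counting error only.

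Genes were kept that passed edgeR's filterByExpr (0.457 CPM in 3 libraries, 15 reads in total). Myc/NrasG12V minus Myc/Akt1 was tested with limma 3.58.1 (trend, two-sided, pseudocount of 1 CPM, no covariate) in R 4.3.3, with Benjamini-Hochberg adjustment over all tested genes. Log2 differences are on the log2(CPM + 1) scale, and folds are ratios of mean CPM. All replicate pairs differed beyond sampling noise, and the pairs with replicate 3 differed most. Over genes, the chi-square per degree of freedom of these pairs was 151.5 and 142.9 in Myc/NrasG12V and 90.9 and 92.5 in Myc/Akt1. For replicates 1 and 2 it was 30.9 in Myc/NrasG12V and 38.6 in Myc/Akt1. Alternatives were factors by upper quartile, median of ratios and TMM, other filters and pseudocounts, edgeR 4.0.16 and DESeq2 1.42.0 on recovered reads, a replicate block and each library left out. On simulated data the same fit recovered 1.82% of genes changed 1.5-fold, 30.1% of those changed 2-fold and 98.6% of those changed 4-fold. Of its 99 calls, 5 were false. The simulation gave all genes a common spread and no difference of scale between the groups, so it does not give the power for a single member. The members and lists were chosen with earlier results of these data known. Per-library values are given for Ncl, Npm1, Fbl, Odc1 and the 2 members of lowest adjusted p in each role. Of each other list the 2 called genes of lowest adjusted p in each direction are named. Nob1, as the 1 member called higher in some alternatives, and Nop10 were given in full after their values were seen. Of 131 other pathway genes, Riok2 and Exosc6 were not analysed here. Coordinates are those of GENCODE M21, and promoter windows are from RefSeq (GRCm38.p6).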

Additional observations from a re-analysis of the deposited data

How the results depend on the processing

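Of the 40 members, 20 were called lower and 0 higher on the CPM scale. With TMM factors 7 were lower, with median-of-ratios 7 and with upper quartile 6, and with edgeR and DESeq2 on recovered reads 7 and 8 were lower. Of all tested genes 29.5% were lower on the CPM scale and 16.3% to 19.5% in these 5 settings. Each of these 5 settings called 1 member of 40 higher, Nob1, where 16.2% to 19.2% of all tested genes were higher. Leaving out 1 library gave 8 to 24 members lower and 0 higher, where 20.1% to 33.4% of all tested genes were lower. For the other pathway genes, 51 lower and 2 higher became 22 and 6 with TMM, 20 and 6 with median-of-ratios, 16 and 8 with upper-quartile factors, 21 and 6 with edgeR, and 24 and 10 with DESeq2. In that order 17.1%, 15.5%, 12.4%, 16.3% and 18.6% of these genes were lower, against 17.9%, 17.5%, 16.3%, 17.5% and 19.5% of all tested genes. Higher were 4.65% to 7.75% of them, against 16.2% to 19.2% of all tested genes. Leaving out 1 library gave 25 to 70 lower and 1 to 3 higher. In those fits 20.1% to 33.4% of all tested genes were lower and 6.72% to 10.5% higher. The cause was not tested. Other filters and pseudocounts moved none of these counts by more than 1.5 times.

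No called member changed sign in any alternative, while 11 uncalled ones did. With TMM, median-of-ratios, upper-quartile, edgeR and DESeq2 in that order, the log2 difference was 0.062, 0.067, 0.116, 0.075 and 0.080 for Gnl3, 0.26, 0.26, 0.31, 0.26 and 0.27 for Rrp9, and 0.21, 0.22, 0.26, 0.22 and 0.23 for Rrp12. It was 0.19, 0.20, 0.25, 0.18 and 0.18 for Ppan, 0.21, 0.22, 0.27, 0.23 and 0.23 for Nip7, 0.27, 0.27, 0.32, 0.27 and 0.28 for Noc2l, and 0.11, 0.12, 0.17, 0.11 and 0.11 for Srm. With upper-quartile factors alone it was 0.046 for Tsr1, 0.009 for Heatr1 and 0.017 for Cad. Over fits that left out 1 library each, the log2 difference ran from -0.18 to 0.10 for Rrp9, -0.28 to 0.047 for Rrp12, -0.37 to 0.14 for Ppan, -0.25 to 0.013 for Nip7, -0.13 to 0.038 for Noc2l, -0.039 to 0.20 for Polr1c and -0.18 to 0.30 for Myc, none of them called.

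Same-numbered libraries had correlations of -0.08, 0.11 and 0.08 between their deviations from the group means, and not every one of them was above 0.1. Replicates 2 and 3 of Myc/NrasG12V correlated best with their own number in Myc/Akt1 and replicate 1 with replicate 2 of Myc/Akt1. The samples were therefore treated as sharing only a number. A replicate block gave 17 members lower, against 28.3% of all tested genes, and 0 higher. It ended the calls of Polr1b, Nop58 and Nop16 among the members. Of the other pathway genes 49 were lower, without Amd1, and 2 higher.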

Other observations

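A further 5 polyamine and pyrimidine genes were outside the rule for named genes and were chosen after their values were seen. Oaz1, the antizyme that sends ornithine decarboxylase to the proteasome, had 49.0, 50.3 and 57.0 CPM in replicates 1, 2 and 3 of Myc/NrasG12V and 84.4, 94.2 and 156 CPM in those of Myc/Akt1, and it was lower in Myc/NrasG12V without overlap (log2 difference -1.03, 95% interval -1.58 to -0.49, limma adjusted p = 0.00922). Its spread was wide within Myc/Akt1, where replicate 3 was the highest, and the call was lost with upper-quartile factors (0.0641 by limma). Amd1, which makes the aminopropyl donor of spermidine and spermine, averaged 19.3 ± 5.87 CPM in Myc/NrasG12V and 36.1 ± 8.96 CPM in Myc/Akt1 (SD, n = 3 each), a log2 difference of -0.88 (limma adjusted p = 0.0324). Sat1, which acetylates polyamines for export, had 285, 526 and 134 CPM in replicates 1, 2 and 3 of Myc/NrasG12V and 204, 91.7 and 191 CPM in those of Myc/Akt1. Its groups overlapped, Myc/NrasG12V replicate 2 stood highest and Myc/NrasG12V replicate 3 below both the first and the third Myc/Akt1 replicate, and it did not pass (log2 difference 0.83, limma adjusted p = 0.207); it passed without Myc/NrasG12V replicate 3 (0.0234 by limma) and with DESeq2 on recovered reads (adjusted p = 0.026).

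In pyrimidine synthesis, 2 further enzymes could be set beside Cad, which did not pass. Dhodh, the mitochondrial enzyme of the step after Cad, averaged 15.5 ± 1.13 CPM in Myc/NrasG12V and 27.2 ± 2.69 CPM in Myc/Akt1 (SD, n = 3 each), a log2 difference of -0.77 (limma adjusted p = 0.0104). Ctps, which turns UTP into CTP, averaged 46.9 ± 9.46 CPM in Myc/NrasG12V and 84.7 ± 23.9 CPM in Myc/Akt1 (SD, n = 3 each), a log2 difference of -0.82 (limma adjusted p = 0.023). The calls of Amd1, Dhodh and Ctps were lost with each scaling factor (limma adjusted p = 0.113 to 0.148, 0.0791 to 0.109 and 0.102 to 0.135). The Amd1 call was also lost with a replicate block (0.0577 by limma) and with no filter beyond 1 read (0.0545). Leaving out 1 library ended the call of Amd1 (without replicate 1 or 2 of either group, 0.0844 to 0.118 by limma), of Ctps (without replicate 1 of either group or Myc/NrasG12V replicate 2, 0.0622 to 0.0882) and of Dhodh (without Myc/Akt1 replicate 2, 0.051).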
